A study of Mus musculus with 12 samples.

Results

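Replication-dependent histone genes were followed in cultured mouse B cells that carried either normal MYC or MYC with the T58A point mutation. They were taken as the gene symbols of the cluster-based form (Hist1 to Hist4, followed by h1 to h4) with a read in at least 1 library. Of 68 such symbols 57 had a read, out of 24015 genes in all, and 11 stood at 0 in every library. The 12 RNA-seq libraries came from primary B cells kept for 48 hours in medium with serum, with 3 libraries in each of 4 groups. WT and T58A cells from marrow received IL7, a growth factor of precursor B cells. WT and T58A cells from spleen received LPS, a bacterial cell wall component that activates mature B cells. The T58A change replaces a threonine of MYC whose phosphorylation marks the protein for degradation. The design text describes WT and T58A animals as littermates, and it gives neither strain nor age nor whether the mutation was on 1 allele or on each.

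Replication-dependent histones are the linker histone H1 and the core histones H2A, H2B, H3 and H4 that package newly made DNA. Their genes lie in clusters, lack introns as a rule and are switched on as cells enter S phase. Their messenger RNAs end in a conserved stem-loop bound by SLBP in place of a poly(A) tail, and a kit that selects RNA by its poly(A) tail, as the TruSeq RNA v2 kit does, takes up such RNA poorly. Some of these genes also make a longer polyadenylated RNA that persists in cells that do not divide, so the values here are those of the RNA the kit captured, not of the whole histone RNA pool. In bulk samples, fewer cells of a type and less RNA per cell cannot be told apart.

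The stem-loop sets these genes apart and bears on what the libraries could capture, so its main forms are shown here as DNA of the annotated transcripts (GENCODE M21, GRCm38). It was searched as 16 bases with paired arms of 6 bases and a loop of 4 bases, and the capitals mark the loop. Of the 57 genes, 39 had it in an annotated transcript, from 21 to 54 bases after the stop codon, in 8 different sequences. The first form stood in 20 genes of the H1, H2A, H2B and H3 families, among them Hist1h1c and Hist3h2a. The next stood in 6 genes that include Hist1h3c. The last pair belonged to H4 genes only, the former of them in 6 genes and the latter in 2.
Hist1h1c: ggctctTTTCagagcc
Hist1h3c: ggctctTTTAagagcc
Hist1h4d: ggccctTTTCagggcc
Hist1h4i: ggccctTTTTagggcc
The pattern was found within 100 bases after the stop codon in 83.9% of the 31 histone genes with a full window there, against 0.171% of 19894 other coding genes. These 31 were taken from all 68 symbols, those at 0 included. Among the 57 genes with a read, 18 had no match, and 15 of these have an annotated end within 50 bases of the stop codon. Hist2h2be and Hist1h2bc belong to the remainder. Hist2h2be is annotated as 1 exon of 2620 bases (chr3:96221119-96223738, plus strand). Hist1h2bc is annotated as a spliced transcript with exon 1 at chr13:23684199-23684621 and exon 2 at chr13:23692176-23692908 on the plus strand, so that its annotated 3′ end lies away from the coding exon.

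Of the 57 genes, 47 lie on chromosome 13, 6 on chromosome 3, 3 on chromosome 11 and 1 on chromosome 6. Many are near copies of each other. In the median gene 68.2% of the stretches of 100 bases were found in no other annotated gene, and in 19 genes it was under 50%. Of the 11 genes at 0, 9 had under 40% unique stretches (from 0% to 38.4%), and a read from a shared stretch matches more than 1 gene of this annotation. Hist2h2bb and Hist2h3b, at 0% unique stretches, had reads all the same, as did Hist1h3h at 8.01%. The annotation used for the counts is not given, and the part of shared sequence in the zeros was not tested. Hist1h2aa and Hist1h2ba, the remaining genes at 0, code for histones known from testis. For any gene at 0, the limit that 3 reads give was 0.294 to 0.587 RPM (reads of a gene per 1000000 assigned reads), depending on the library. Hist1h2af had 14 reads in the IL7 libraries and none in LPS, and Hist3h2bb-ps, a pseudogene, had 5 reads in LPS and none in IL7.

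The libraries held 8486753 to 10201113 reads assigned to genes in IL7 and 5110746 to 9332410 in LPS, of which only 439 to 887 and 379 to 1291 were histone reads. Summed B lineage markers (7 genes) stood between 3199 and 5845 RPM in IL7 and between 6183 and 7344 in LPS, and precursor B cell markers (10 genes) between 2160 and 3084 in IL7 and 229 and 295 in LPS. Myeloid markers (13 genes) summed to 36.9 to 189 RPM and T and NK cell markers (11 genes) to 43.8 to 174 over both cultures. Erythroid and megakaryocyte markers (13 genes) summed to 851 to 1809 RPM in IL7 and 250 to 444 in LPS. The haemoglobin genes of that list were at 0. Stromal and dendritic markers (9 genes) summed to 1.89 to 17.55 RPM in IL7 and 103 to 294 in LPS. Xist was high (11280 to 23670 normalised reads) in WT 1 and WT 2 of both cultures and at 3.6 to 26.9 in the other libraries, so sex moves with genotype in pairs 1 and 2, and only pair 3 compares animals of 1 sex by this measure. IL7 WT 2 also held Y-linked reads (Ddx3y 42.6 normalised reads, against 0 in IL7 WT 1). IL7 WT 1 stood apart from the other IL7 libraries, with 3110 RPM of mature B cell markers (8 genes) against 436 to 1468, and with 7515 of S phase genes (31 genes) against 8683 to 9737. In the LPS data, 2 T58A columns carry the same number, and they are called here the first and the second unnumbered T58A library. LPS WT 2 and the second unnumbered T58A library stood apart from the rest of LPS, with 2738 and 2881 RPM of S phase genes against 3188 to 4144.

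Histone genes together gave a small and variable share of the reads, and the genotypes overlapped in both cultures. In IL7 the sum was 88.8, 63.8 and 52.3 RPM in WT 1 to 3 and 66.6, 68.4 and 43.6 in T58A 1 to 3. In LPS it was 94.1, 127.6 and 104 in WT 1 to 3, 66.7 and 138 in the first and second unnumbered T58A libraries and 58.8 in T58A 3. The lowest and the highest LPS library were therefore both T58A. Between 28.0% and 69.0% of the histone reads of a library fell on only 4 genes, Hist1h1c, Hist1h2bc, Hist2h2be and Hist3h2a. By family, H1 genes (6 genes) gave 19.6% of the histone RPM in IL7 and 39.7% in LPS. H2B genes (16 genes) gave 37.4% and 32.3%, H2A genes (13 genes) 18.8% and 14.5%, H3 genes (10 genes) 9.67% and 5.24%, and H4 genes (12 genes) 14.4% and 8.25%. The tables were normalised separately and no test was made between the cultures.

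Per length of exon the order was different from that of the read counts. In IL7 the highest genes were Hist1h4i with 6.62 RPKM (reads per kilobase of exon, scaled as RPM; SD 3.82 over the 6 libraries), Hist1h2bj with 5.90 (SD 2.42), Hist1h1c with 5.0 (SD 3.98), Hist2h2be with 4.46 (SD 1.19) and Hist1h3c with 3.46 (SD 0.618). In LPS they were Hist1h1c with 13.0 (SD 5.27), Hist1h2bc with 7.34 (SD 5.89), Hist2h2bb with 5.44 (SD 3.12), Hist1h1a with 5.26 (SD 3.90) and Hist1h1b with 5.18 (SD 2.64). No gene of these 10 was above the next in every library, so neighbours in this order did not separate beyond their spread. The value of Hist2h2bb, an H2B gene, is uncertain because each of its stretches of 100 bases is also found in another annotated gene.

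The 18 genes annotated with over 300 bases after the stop codon held 65.8% of the histone RPM in IL7 and 75.1% in LPS. Their median level per length was not the higher one, at 0.527 RPKM in IL7 and 0.519 in LPS, against 0.961 and 0.923 in the 38 genes with a shorter annotated end. Across the 39 genes with a stem-loop, the Spearman correlation of the bases annotated after it with the level per length was -0.35 in IL7 and -0.076 in LPS. These are descriptions across genes of the same libraries, and the annotated length is itself the divisor of the level. Hist1h1d shows this, with 7425 annotated exon bases and only 0.142 RPKM in IL7.

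**Figure D1:**
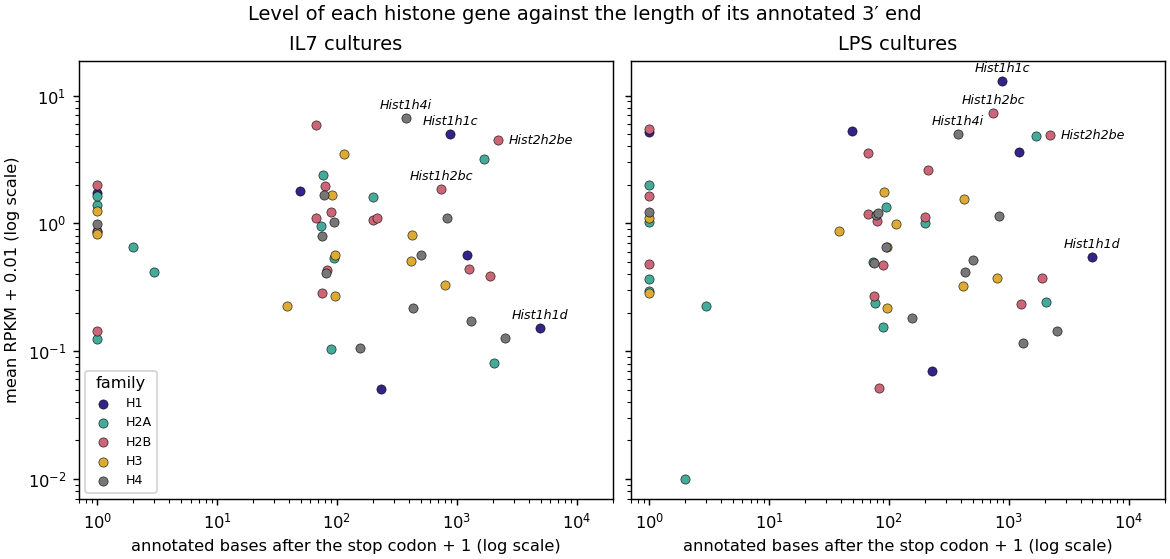
Mean level of each histone gene in RPKM plus 0.01 (log axis) against the annotated bases after its stop codon plus 1 (log axis), in IL7 (left) and LPS (right), with 1 point per gene coloured by family and the pseudogene left out. Hist1h4i (6.62) is at the top in IL7 and Hist1h1c (13.0) in LPS, and genes with long annotated ends are spread from the top to the bottom.

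Among the linker histones, the level of Hist1h1c was lower in T58A than in WT on average in both cultures, and no linker histone gene passed the test in either. Hist1h1c codes for H1.2, a linker histone also made outside S phase. In LPS it had 150, 157 and 222 normalised reads in WT 1 to 3 and 70.8, 151 and 77.2 in T58A, in the order first unnumbered, second unnumbered and T58A 3. The second unnumbered T58A library reached the WT range while the other 2 T58A libraries lay below it. The difference on the log2 (normalised reads + 1) scale, T58A over WT, was -0.88 ± 0.31 (SE, n = 3 against 3), at an adjusted p in limma of 1 over all genes tested. With pairs as blocks the limma adjusted p was 0.131 when the first unnumbered library was paired with WT 1. With the other pairing the unadjusted limma p was 0.027, and the gene was not called. With pair 2 left out, the blocked fit kept pairs 1 and 3 only, the second unnumbered library being taken as pair 2. The difference was then -1.29 at an adjusted p in limma of 0.00844, where 0.483% of all genes were called and 0.277% were called lower. Pair 2 was the pair with the closest values (157 and 151), and no other pair was left out in turn. With the unnumbered libraries assigned the other way, the fit without pair 2 gave -0.75 and an adjusted p of 0.307 in limma, so the call was lost. In the authors' deposited table Hist1h1c in LPS has a log2 fold change of -0.470 and a p-value of 0.00338, with no adjusted value. DESeq2 as run here gave -0.81 without the block. The deposited fold change may be on another scale, so the sizes are not compared.

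In IL7 Hist1h1c had 184, 48.9 and 44 normalised reads in WT 1 to 3 and 85.0, 37.2 and 37.1 in T58A 1 to 3. WT 1 stood far above the others, T58A 1 was the next, and the groups overlapped. The difference was -0.58 ± 0.56 (SE), at an adjusted p in limma of 0.616, or 0.123 with pairs as blocks. Without WT 1 the difference was 0.08. WT 1 is the library with the most mature B cell marker reads, and their part in the Hist1h1c level was not tested.

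The other linker histone genes varied more between libraries than between genotypes. Hist1h1e, which codes for H1.4, had 13.7, 101 and 18.7 normalised reads in LPS WT 1 to 3 and 21.6, 104 and 25.4 in the T58A libraries. Hist1h1d, which codes for H1.3, had 8.24, 59.6 and 15.7 in LPS WT and 6.0, 58.1 and 12.7 in T58A. In each case LPS WT 2 and the second unnumbered T58A library were high and the other 4 low, so the groups overlapped. Hist1h1a (H1.1) followed that order less closely, with 6.87, 36.3 and 27.5 in LPS WT and 18.0, 58.8 and 10.8 in T58A. Hist1h1b (H1.5) had 17.9, 36.3 and 34.4 in LPS WT and 13.2, 42.3 and 12.7 in T58A. The limma adjusted p was 1 for each of these 4 genes in LPS. In IL7 Hist1h1a, Hist1h1b and Hist1h1d stayed at or under 30.0 normalised reads in each library, and Hist1h1e did not pass the filter on low counts. Hist1h1e overlaps Hist1h2be on the same strand, so reads from the shared stretch cannot be told apart in these tables.

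Among the H2A genes only Hist3h2a was measured in both cultures with enough reads to be tested. In LPS it had 83.8, 75.2 and 88.5 normalised reads in WT 1 to 3 and 55.2, 62.4 and 59.6 in T58A. All 3 T58A libraries lay below all 3 WT libraries. The difference was -0.47 ± 0.21 (SE), at an adjusted p in limma of 1, so it did not pass. With pairs as blocks the limma adjusted p was 0.214 when the first unnumbered library was paired with WT 1. With the other pairing the unadjusted limma p was 0.0713, and neither pairing gave a call. In IL7 Hist3h2a had 106, 59.8 and 54.0 in WT and 62.4, 56.8 and 41.8 in T58A, with overlapping groups, a difference of -0.39 ± 0.30 (SE) and a limma adjusted p of 0.509. Without IL7 WT 1 that difference was -0.10. The gene shares part of its annotated exons with Trim17 on the same strand, and 70.2% of its stretches of 100 bases are found in no other gene. Hist1h2ae and Hist1h2ag were tested in IL7 only. Hist1h2ae had 6.46 to 13.3 and Hist1h2ag 6.66 to 17.2 normalised reads, with differences of 0.03 ± 0.42 and 0.12 ± 0.42 (SE).

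The H2B gene Hist1h2bc had the lowest level in T58A relative to WT of any histone gene tested in LPS, but it did not pass the test over all genes. It had 143, 47.5 and 86.5 normalised reads in LPS WT 1 to 3 and 30.0, 25.1 and 18.6 in T58A, in the order first unnumbered, second unnumbered and T58A 3. All 3 T58A libraries lay below all 3 WT libraries, and the WT libraries spread over a wider range. The means were 92.3 ± 47.9 and 24.6 ± 5.73 normalised reads (SD, n = 3 each), from 247 and 79 reads in all, a ratio of T58A to WT of 0.266. The difference was -1.76 ± 0.40 (SE) on the log2 scale, with a limma p of 0.00167 and an adjusted p of 1. Over its alternatives the adjusted p ran from 0.00152 to 1.

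With pairs as blocks the difference of Hist1h2bc in LPS had an SE of 0.28 and a limma adjusted p of 0.0565. It passed in edgeR's quasi-likelihood test with the block (adjusted p 0.0419), where 0.345% of genes were called and 0.204% were called lower in T58A. With the unnumbered libraries assigned the other way, the adjusted p was 1 in limma and in edgeR with the block. Hist1h2bc also passed in limma with the block and pair 2 left out (-2.19, adjusted p 0.00152), where 0.483% of genes were called and 0.277% were called lower. That fit kept pairs 1 and 3 only. Pair 2 holds the WT library with the lowest Hist1h2bc level, and no other pair was left out in turn. With the unnumbered T58A libraries assigned to the pairs the other way, the same fit without pair 2 gave -2.31 at an adjusted p in limma of 0.0175, beside 0.0442% of genes called and 0.0265% called lower. In pair 3, where both libraries had little Xist, the difference was -2.16. The authors' deposited table gives Hist1h2bc in LPS a log2 fold change of -0.740 and a p-value of 3.63e-06, with no adjusted value. DESeq2 as run here gave -1.90 without the block. The deposited fold change may be on another scale, so the sizes are not compared. Plasmablast markers (8 genes) summed to 15640, 6744 and 15396 RPM in LPS WT 1 to 3 and 7412, 4272 and 10776 in T58A, in the same order as above. The WT library with the lowest Hist1h2bc level had the lowest plasmablast marker sum of WT, while the T58A library with the lowest Hist1h2bc level had the highest sum of T58A. The part of those cells in the difference was not tested.

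In IL7 Hist1h2bc had 34.3, 22.6 and 12.1 normalised reads in WT and 17.2, 17.6 and 15.2 in T58A. The groups overlapped, and the difference was -0.33 ± 0.40 (SE) at an adjusted p in limma of 0.689. Without IL7 WT 1 it was 0.0023. The LPS difference minus the IL7 difference was -1.42 ± 0.59 (SE), at an adjusted p in limma of 0.995. With pairs as blocks the limma adjusted p was 0.138 when the first unnumbered library was paired with WT 1. It was 0.606 with the other pairing. No histone gene passed this test of the difference between cultures, among 18 tested and with 0% of 12184 genes called without the block. With the block, 3.06% of genes were called under the first of these pairings and 0% under the other. Of the 18, only Hist1h2bc was at an unadjusted limma p under 0.05, beside 551 of all 12184 genes without the block. With the block in the first of these pairings it was again the only 1, beside 2168 of all genes.

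Hist2h2be, an H2B gene, gave the most reads of the H2B genes in both cultures and was not called. It had 154, 115 and 100.2 normalised reads in IL7 WT and 118, 68.2 and 98.9 in T58A, a difference of -0.38 ± 0.25 (SE), or -0.21 without WT 1 and -0.16 without T58A 2. In LPS it had 79.7, 94.2 and 77.7 in WT and 108, 101 and 64.5 in T58A, a difference of 0.09 ± 0.25 (SE). The groups overlapped in both cultures. Hist1h2be, another H2B gene, was the 1 gene among the 15 tested with all IL7 T58A libraries above all WT libraries. It had 9.28, 13.6 and 12.1 normalised reads in IL7 WT and 18.3, 20.7 and 20.9 in T58A. The difference was 0.74 ± 0.32 (SE) at an adjusted p in limma of 0.289 and of 0.178 with the block. IL7 WT 1 lay under the level of the filter on low counts, so the place of Hist1h2be among the tested genes rested in part on the T58A libraries. As given above, it overlaps Hist1h1e on the same strand. In LPS Hist1h2be overlapped between the groups, with 4.12 to 15.7 in WT and 10.8 to 14.3 in T58A. Hist1h2bj had 10.5 to 38.2 normalised reads in IL7 and 4.8 to 19.9 in LPS, with overlapping groups in both.

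**Figure D2:**
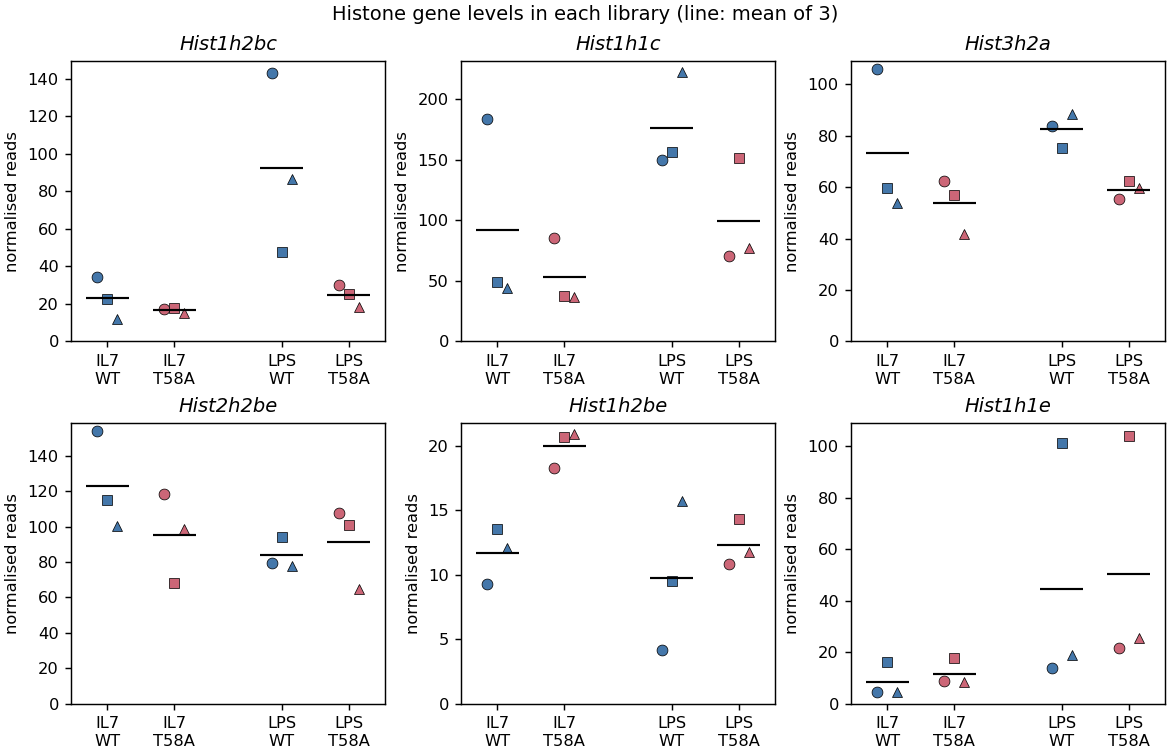
Normalised reads of 6 histone genes in each library, with circles, squares and triangles for libraries 1, 2 and 3 (in LPS T58A, the first and the second unnumbered library and T58A 3), WT in blue, T58A in red and a line at each mean of 3. Hist1h2bc and Hist3h2a separate the genotypes in LPS and Hist1h2be does in IL7, while LPS WT 2 and the second unnumbered T58A library are both above 100 for Hist1h1e.

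Few H3 and H4 genes had enough reads to be tested. Hist1h3c was the only H3 gene tested within a culture, in IL7, with 19.5, 16.3 and 20.9 normalised reads in WT and 26.9, 20.7 and 18.1 in T58A, a difference of 0.19 ± 0.30 (SE) between overlapping groups. Hist1h4i, the H4 gene with the highest level per length, had 64.0, 45.3 and 16.5 in IL7 WT and 71.0, 62.0 and 10.5 in T58A. In LPS it had 28.9, 33.7 and 7.86 in WT and 27.6, 40.9 and 7.82 in T58A. In both cultures the libraries numbered 3 were low in each genotype, and the genotype differences were -0.01 ± 0.74 and 0.07 ± 0.68 (SE). Hist1h4d had 6.66 to 16.5 normalised reads in IL7 and 0.983 to 14.7 in LPS.

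Over the family, 15 histone genes had enough reads to be tested in IL7 and 14 in LPS, with 11 in both and 39 in neither. A gene that passes the filter in 1 group only would be expected to differ, so these counts do not stand for the family. In IL7 limma called 0 of the 15, with 0% of 11604 genes called, and still 0 with pairs as blocks, where 12.7% of all genes were called. edgeR also called 0 of them, with and without the block, and DESeq2 called 0 of the 5 to which it gave an adjusted p with the block and 0 of 4 without it. At an unadjusted limma p under 0.05 there was 1 of 15 (Hist1h2be), where 16.9% of all genes were. Above 0 were 5 genes and below 0 were 10, with a median log2 difference of -0.02 against -0.01 over all genes tested. The 1 gene above WT without overlap stands beside 12.9% of all genes, and the 0 below beside 10.8%.

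In LPS limma called 0 of the 14, with 0% of 11291 genes called. With the block it called 0 of them when the first unnumbered library was paired with WT 1, where 0.0354% of genes were called and 0.0177% were called lower, and 0 under the other pairing, where 0% were. edgeR called 0 without the block. DESeq2 called 0 of 14 without the block and under the pairing of the first unnumbered library with WT 2. Under the pairing with WT 1 DESeq2 gave none of the 14 an adjusted p, and its unadjusted p for Hist1h2bc was 2.8e-06. Unadjusted limma p-values under 0.05 were found for 2 genes (Hist1h1c and Hist1h2bc), where 2.52% of all genes had them. Above 0 were 6 genes and below 0 were 8, with a median of -0.25 against 0.01 over all genes tested. Among the tested, the 2 genes below WT without overlap, Hist1h2bc and Hist3h2a, stand beside 3.30% of all genes, and the 0 above beside 3.10%.

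**Figure D3:**
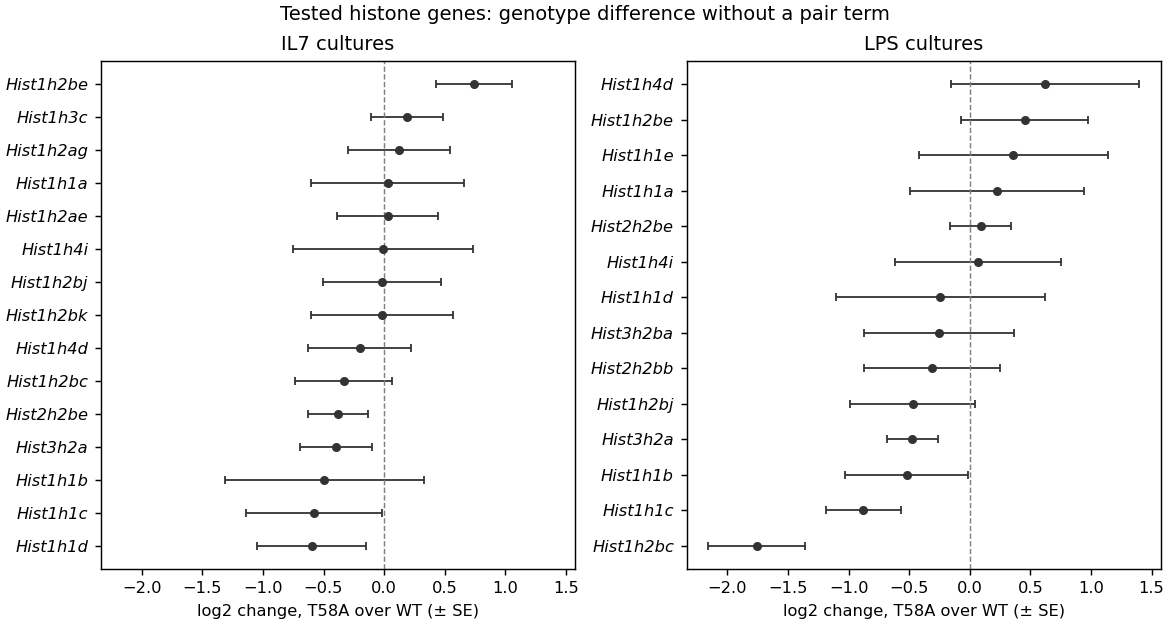
Log2 difference of normalised reads + 1, T58A over WT, with its SE (limma, without the pair as a block) for the 15 histone genes tested in IL7 (left) and the 14 tested in LPS (right), ordered by size. Hist1h2bc in LPS is the farthest from 0 at -1.76, and no gene passed the adjusted threshold in this fit.

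H2A and H2B genes often lie head to head with a short stretch between their starts, and their levels could differ widely across it. Of 13 such pairs in the annotation, Hist1h2ac and Hist1h2bc start 251 bases apart, and the level was 0.0713 and 1.84 RPKM in IL7 and 0.231 and 7.34 in LPS. Hist2h2ac and Hist2h2be start 239 bases apart, with 0.522 and 4.46 in IL7 and 1.34 and 4.90 in LPS. Other pairs were closer, such as Hist1h2ae and Hist1h2bg, 176 bases apart, with 1.59 and 1.05 in IL7 and 0.996 and 1.11 in LPS. In the pair of Hist3h2a, the partner is the pseudogene Hist3h2bb-ps.

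**Figure D4:**
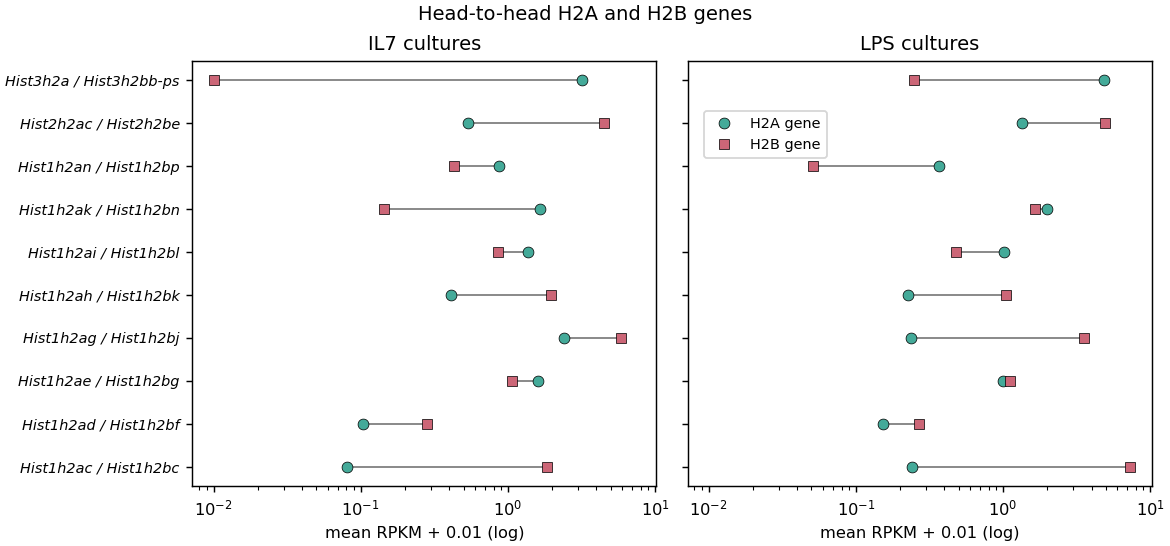
Mean level of the H2A gene (circles) and the H2B gene (squares) of each head-to-head pair in RPKM plus 0.01 (log axis), in IL7 and LPS, for the pairs with a read in IL7. The levels of Hist1h2ac and Hist1h2bc lie far apart in both cultures (0.231 and 7.34 in LPS), and those of Hist1h2ae and Hist1h2bg lie close together (0.996 and 1.11 in LPS).

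The stretch between Hist1h2ac and Hist1h2bc is shown because Hist1h2bc was the gene farthest from 0 in LPS, and the stretch before Hist1h1c because that gene came next. They are RefSeq promoter sequence of GRCm38.p6, at chr13:23683960-23684198 on the minus strand, which reads toward Hist1h2ac, and at chr13:23738557-23738806 on the plus strand. The capitals mark the matches of 4 motifs on either strand: CCAAT, the TATA box motif TATAAA, the octamer motif ATTTGCAT and the E-box motif CACGTG, which MYC is known to bind.
Hist1h2ac: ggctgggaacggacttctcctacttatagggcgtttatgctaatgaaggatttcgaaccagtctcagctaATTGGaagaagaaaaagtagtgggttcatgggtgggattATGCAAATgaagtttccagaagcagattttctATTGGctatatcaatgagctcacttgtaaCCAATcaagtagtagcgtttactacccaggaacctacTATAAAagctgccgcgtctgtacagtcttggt
Hist1h1c: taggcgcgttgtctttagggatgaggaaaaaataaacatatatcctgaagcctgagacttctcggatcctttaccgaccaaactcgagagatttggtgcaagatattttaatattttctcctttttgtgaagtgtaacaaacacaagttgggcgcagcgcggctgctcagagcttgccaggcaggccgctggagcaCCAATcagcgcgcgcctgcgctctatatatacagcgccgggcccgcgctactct
Counted upstream from the start of Hist1h2ac, CCAAT matched at 69, 98 and 169 bases, the octamer at 130 bases and TATAAA at 32 bases. Before Hist1h1c CCAAT matched at 54 bases, and neither the octamer nor TATAAA nor CACGTG matched in the letters shown. In windows from 250 bases before to 50 bases after the start, CCAAT stood in 84.3% of the 51 histone genes that had a window, against 37.4% of 32851 RefSeq windows. It stood in each window of the H1, H2A, H2B and H3 genes and in 27.3% of the 11 H4 windows. TATAAA stood in 60.8% against 13.6%. The octamer stood in 21.6% against 1.74%, and it was found in 46.2% of the H2A and 38.5% of the H2B windows and in none of the H1, H3 and H4 windows. CACGTG stood in 0 of 51 against 7.15%, which says only that these letters are not in those windows.

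The other genes of the pathway were taken from lists of the factors that transcribe, process, store and use histones. Without the block limma called none of them in either culture. Slbp, the stem-loop binding protein, had 1718, 1925 and 1941 normalised reads in IL7 WT and 1753, 1794 and 1813 in T58A, a difference of -0.06 ± 0.08 (SE), and a difference of -0.04 ± 0.22 (SE) in LPS. Npat, which drives histone gene transcription in S phase, had 564, 838 and 894 in IL7 WT and 781, 848 and 999 in T58A, a difference of 0.21 ± 0.18 (SE), and one of -0.10 ± 0.16 (SE) in LPS. Both genes overlapped between the groups in each culture.

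With pairs as blocks in IL7, where 12.7% of all genes were called, 4 of 28 genes of histone transcription and 3′ end processing were called. Higher in T58A were Casp8ap2 (0.30 ± 0.08, SE), which builds the histone locus body, and Cpsf1 (0.24 ± 0.06, SE), a cleavage factor subunit. Lower were Mif4gd (-0.71 ± 0.14, SE), which helps translate histone RNA, and Zcchc6 (-0.43 ± 0.07, SE), an enzyme that adds uridines to RNA. The limma adjusted p-values with the block were 0.0488, 0.0411, 0.0180 and 0.0105. Without the block they were 0.324, 0.191, 0.334 and 0.168.

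In the same fit with the block, 12.7% of all genes were called in either direction, and the counts of the next lists lie near that share. The share of all genes called higher was not counted. Of 27 histone chaperones and deposition factors, 4 were called higher in T58A (Supt16, Ssrp1, Supt6 and Ipo4) and none lower. Supt16 and Ssrp1 form the FACT complex, which moves histones on and off DNA. Of 31 S phase genes, 5 were called higher (Mcm2, Mcm5, Mcm6, Mcm10 and Pole) and none lower, with Pole, a replicative DNA polymerase, at 0.41 ± 0.07 (SE) and a limma adjusted p of 0.00956, or 0.229 without the block. The median log2 difference was 0.14 for each of these lists, against -0.01 over all genes. Of 10 tested histone genes made outside S phase, H2afv, an H2A.Z gene, was called lower. It had 1625, 1465 and 1371 normalised reads in IL7 WT and 1075, 987 and 965 in T58A, without overlap, a difference of -0.56 ± 0.07 (SE) at an adjusted p in limma of 0.00404 with the block and 0.133 without it. In LPS the block gave no call in any of these 4 lists. Few genes could be called there: 0.0354% of all genes were when the first unnumbered library was paired with WT 1, and 0% under the other pairing. The absence of calls in LPS therefore does not set the cultures apart. B cell markers moved with genotype in the same IL7 fit. Of 8 mature B cell markers, 6 were called lower in T58A (median log2 difference -0.96). So were 4 of 7 B lineage markers (median -0.39) and 4 of 10 precursor B cell markers (median -0.26), with none called higher. Myeloid markers were also lower, with 0 of 8 tested above 0 (median -0.96), but 0 were called. The summed mature markers were 844 to 3110 RPM in IL7 WT and 436 to 1338 in T58A. Their part in the changes of the histone pathway genes in IL7 was not tested.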

How the data were processed

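Bulk RNA-seq of 12 libraries was analysed here. Per the submitters' processing notes, the authors used bcl2fastq 1.8.4, TopHat2 2.1.0, HTSeq 0.6.1, DESeq2 and the mm10 build; the annotation and counting mode are not given in the sources used here. The deposited tables, 1 per culture, hold a normalised signal per gene, the authors' log2 fold changes and p-values. Each deposited value was a whole number of reads times 1 factor per library (within 0.001 for 100% of values), so reads were recovered. 3 reads are worth 2.15 to 4.12 normalised reads. The kit does not mark strand. All sample columns were used (0 left out).

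limma 3.58.1 (R 4.3.3) was run on log2 (normalised reads + 1) within each culture and, for the difference, over both, for genes passing edgeR 4.0.16 filterByExpr (minimum count 10, minimum total 15), with Benjamini-Hochberg adjustment and a threshold of 0.05. edgeR and DESeq2 1.42.0 were alternatives, as were the pair as a block, pseudocounts of 0.5 and 5, and no filter or a mean of at least 50 normalised reads. So were scaling by TMM or total reads, 1 fit over all 12 libraries, and leaving out 1 library at a time. Pair 2 was also left out of the blocked fits, and no other pair was. The test was also run on simulated counts with the same spread setting for all genes and no pair, sex or batch effect. That run does not show how the test behaves for low and variable genes such as these. The members, gene lists and tests were chosen with earlier results of these data known. Most genes named in the text had an adjusted p under 0.05 in a test with or without the block. Others were among those with the smallest p in each direction or the highest levels, and Slbp and Npat were always given. Outside this rule, genes were named for zero counts, shared or overlapping sequence, reads in 1 culture, head-to-head pairs or sex. Exon lengths, stem-loops and unique stretches of 50 and 100 bases are from GENCODE M21 (GRCm38), which matched 68 symbols, and promoters from RefSeq GRCm38.p6, which matched 61.

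Pair numbers come from the titles. Deviations of same-numbered IL7 libraries from their group means correlated across genes at 0.41, 0.15 and 0.40. Libraries with different numbers stood at -0.36 to -0.045. Deviations from a mean of 3 libraries are not independent of each other, so these values do not prove the pairing. In LPS, the first unnumbered T58A library correlated at 0.34 with WT 1, the second at 0.66 with WT 2, and T58A 3 at 0.54 with WT 3. The other LPS combinations stood at -0.498 to -0.0466. Among them were -0.231 for WT 1 with the second unnumbered library and -0.221 for WT 2 with the first. The same limit holds for these values. The labels do not say that the replicates are separate animals, so p-values measure the spread between these samples. Limits from counts cover counting error only.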

Additional observations from a re-analysis of the deposited data

How the results depend on the processing

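The count of histone genes called stayed at 0 in IL7 under all 19 alternatives and for the difference between cultures under all 28, though DESeq2 with the replicate block gave only 2 and 1 of the 18 genes an adjusted p in its 2 pairings, and in IL7 5 of 15 with it and 4 without. In LPS it stayed at 0 under 19 of the 22 alternatives that gave adjusted values (DESeq2 with the replicate block and the first unnumbered library with WT 1 gave none), those that leave out 1 library included (0 to 0). It was 1 in edgeR with the replicate block when the first unnumbered T58A library was paired with WT 1. It was 2 in limma with the replicate block without pair 2 in that pairing, and 1 with the other pairing without pair 2. The replicate block changed no other call among histone genes. Values near 0 changed sign. For Hist1h2bj in IL7 the log2 difference was 0.0683 (edgeR) and 0.00798 (DESeq2) with the replicate block, 0.111 and 0.116 without it, and 0.00876 with a pseudocount of 5. For Hist1h4i in IL7 these were 0.116, 0.0561, 0.164, 0.179 and 0.0254. With the replicate block and without pair 2, Hist1h2ae in IL7 was at -0.0461 and Hist1h1a in LPS at -0.00334, and with the other pairing Hist1h2bj was at 0.216, Hist2h2bb at 0.340 and the culture difference of Hist3h2a at 0.0651. The cause of these sign changes was not tested.

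Leaving out 1 library at a time moved the log2 differences in IL7 over -0.687 to 0.453 for Hist1h1a, -0.968 to 0.0772 for Hist1h1c, -0.145 to 0.326 for Hist1h2ae, -0.180 to 0.445 for Hist1h2ag, -0.713 to 0.00231 for Hist1h2bc, -0.360 to 0.528 for Hist1h2bj, -0.556 to 0.845 for Hist1h4i, -0.578 to -0.099 for Hist3h2a and -0.554 to -0.161 for Hist2h2be. In LPS the ranges were -0.459 to 0.731 for Hist1h1a, -0.340 to 1.22 for Hist1h1e, -0.00538 to 0.848 for Hist1h2be, -0.697 to -0.105 for Hist1h2bj, -0.245 to 1.25 for Hist1h4d, -0.825 to 0.0574 for Hist2h2bb and -0.0477 to 0.319 for Hist2h2be. Hist1h2bc in LPS ranged from -2.16 to -1.38 and Hist3h2a from -0.538 to -0.422. The culture difference ranged from -0.954 to 0.091 for Hist1h1c and from -0.375 to 0.105 for Hist3h2a. With 379 to 1291 histone reads per library, 39 of the 57 genes had too few reads to be tested within either culture.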
